A study of Mus musculus with 18 samples.

Results

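Genes of the secretory families of the epididymis were followed through 18 RNA-seq libraries of mouse fat and liver. They were chosen by gene name, with earlier results of these data known, so their levels are described and do not test the choice. Ensembl identifiers were matched to GENCODE M21 symbols, and every numbered beta-defensin (Defb), the lipocalins Lcn5, Lcn6, Lcn8, Lcn9, Lcn10 and Lcn12, Crisp1 to Crisp4, the cystatins Cst8, Cst11 and Cst12, Spink8 and Spink10 to Spink13, Rnase9 to Rnase13, and Gpx5, Adam7, Adam28, Ros1 and Spag11a were kept. That gave 70 of the 22298 genes in the files, 42 of them beta-defensins.

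The study profiled liver and 2 fat depots, the epididymal (eWAT) and the inguinal (iWAT), of C57BL/6 mice aged 12 weeks. Both groups carried a floxed Bckdha gene, written Bckdhaf/f, and the group called KO here also carried RIP-Cre (Bckdhaf/f;RIP-Cre), while the group called WT did not. In RIP-Cre mice the rat insulin promoter drives Cre, so recombination is directed at beta cells of the pancreas, with some reported in neurons, rather than at fat or liver. Each of the 6 groups had 3 libraries, a RIP-Cre control without the floxed gene was not analysed here, and the labels do not say that replicates were separate animals, so p-values measure the spread between libraries, which may be technical. Sex is not given in the labels. The Y-linked genes Ddx3y, Eif2s3y, Uty and Kdm5d had reads in every library.

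The epididymis is the coiled duct that sperm pass through after leaving the testis, and its epithelium is divided into an initial segment, a caput (head), a corpus (body) and a cauda (tail) that leads into the vas deferens. Each region secretes its own mixture of proteins under the control of androgens and of factors from the testis, and these proteins coat and remodel maturing sperm. The mouse eWAT depot is attached to this duct, whereas iWAT and liver lie apart from it. Gpx5 is a secreted glutathione peroxidase of the caput, the lipocalins carry small hydrophobic molecules, and Crisp1 is a secretory protein that binds to sperm and is abundant from the distal caput to the cauda.

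Levels are CPM (counts scaled to a common library total), that is, shares of the library, and genes are compared with each other only by the authors' FPKM, which is scaled by gene length. The 6 eWAT libraries held 16796147 to 24357859 counts each. The targeted gene, Bckdha, stood at 52.7 to 261.8 CPM in the eWAT WT libraries and 131.5 to 174.6 CPM in the eWAT KO libraries, and its ranges also overlapped in iWAT and liver. A list of 8 adipocyte genes summed to 15307 to 37267 CPM in 5 eWAT libraries and to 281 CPM in eWAT WT replicate 2. In the iWAT libraries the same sum was 9354 to 28670 CPM. In liver, 4 hepatocyte genes summed to 90903 to 101963 CPM. The library labelled eWAT WT replicate 2 thus stood apart from its label by its fat cell markers, and results that rest on it are given with and without it.

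Promoter sequences of 4 members that stand for the patterns described below show what lies just before their starts. Lcn9 and Defb48 were highest by far in 1 eWAT library. Defb43 was low throughout but highest in 2 others, and Crisp1 was abundant in all 3 of these. Each sequence is the 250 bases before the RefSeq start of the gene in GRCm38.p6, given 5′ to 3′ on the gene's own strand, and capitals mark each match, within its search window, to the motifs named after them. Lcn9 lies at chr2:25822903-25823152 on the plus strand, Defb48 at chr14:62984511-62984760 on the minus strand, Defb43 at chr14:63011521-63011770 on the plus strand and Crisp1 at chr17:40319208-40319457 on the minus strand.
Lcn9: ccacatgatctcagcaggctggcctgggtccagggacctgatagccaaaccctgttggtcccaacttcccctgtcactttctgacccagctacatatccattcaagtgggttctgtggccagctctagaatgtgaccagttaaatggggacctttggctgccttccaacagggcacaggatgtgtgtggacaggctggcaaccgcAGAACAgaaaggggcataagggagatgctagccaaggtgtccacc
Defb48: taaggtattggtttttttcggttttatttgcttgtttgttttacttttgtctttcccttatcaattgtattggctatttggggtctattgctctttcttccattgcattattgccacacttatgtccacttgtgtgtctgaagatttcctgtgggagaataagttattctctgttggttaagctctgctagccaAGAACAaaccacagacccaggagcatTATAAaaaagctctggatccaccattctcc
Defb43: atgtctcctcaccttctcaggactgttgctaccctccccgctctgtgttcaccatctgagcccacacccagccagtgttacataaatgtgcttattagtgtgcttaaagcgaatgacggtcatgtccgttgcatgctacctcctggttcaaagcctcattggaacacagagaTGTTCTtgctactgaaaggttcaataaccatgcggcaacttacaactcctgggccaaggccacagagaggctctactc
Crisp1: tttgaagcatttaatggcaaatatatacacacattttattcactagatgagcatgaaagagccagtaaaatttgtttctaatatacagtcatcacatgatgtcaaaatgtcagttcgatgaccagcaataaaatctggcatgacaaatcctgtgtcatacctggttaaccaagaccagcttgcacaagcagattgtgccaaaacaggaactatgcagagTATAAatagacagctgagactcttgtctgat

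A half-site of steroid hormone response elements, TGTTCT, was searched on both strands, where it reads AGAACA on the other one. The PEA3 family of ETS factors binds an element whose core was searched as AGGAAG, also on both strands. For the position of a TATA box, the letters TATAA were searched on the gene's strand between 40 and 16 bases upstream. None of these motifs shares its whole sequence with another. The half-site begins 45 bases upstream of Lcn9, 56 upstream of Defb48 and 78 upstream of Defb43, and TATAA begins 30 upstream of Defb48 and 31 upstream of Crisp1. RefSeq promoter entries were matched for 48 of the 70 members. The half-site letters were in 20 of these 48 promoters (41.7%) and in 16.2% of 27025 promoters of the same length. TATAA was in 8 of 48 (16.7%) against 3.83% of all, and the PEA3 letters were in 13 of 48 (27.1%) against 29.2% of all. Members of one family share sequence, so these are not independent promoters, and a match describes letters and not a bound site.

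Members were abundant in 3 of the 6 eWAT libraries, in 2 different mixtures. In WT replicate 2 the members together made up 8.45% of all counts (95% Wilson interval 8.44 to 8.47%, counting error only). Their share was 0.239% (0.237 to 0.241%) in KO replicate 1 and 0.246% (0.244 to 0.248%) in KO replicate 3. The other 3 libraries held far less, with summed levels of 62.6 CPM in WT replicate 1, 2.14 CPM in WT replicate 3 and 32.1 CPM in KO replicate 2. The summed level of WT replicate 2, 84550 CPM, was 35.3 times that of KO replicate 1 (2393 CPM) and 34.4 times that of KO replicate 3 (2458 CPM). Since these are bulk samples, fewer cells of a type and less RNA per cell cannot be told apart.

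Of the 70 members, 43 reached 10 CPM in at least 1 eWAT library, 10 peaked between 1 and 10 CPM, 9 had reads but stayed under 1 CPM, and 8 had no read in any of the 18 libraries. Those 8 were Defb3, Defb4, Defb5, Defb7, Defb8, Defb14, Defb34 and Defb46. At least 10 CPM was reached by 42 members in WT replicate 2, by 6 in KO replicate 1 and by 4 in KO replicate 3. Gpx5 was the only member to reach it in WT replicate 1 or KO replicate 2, and none did in WT replicate 3. WT replicate 2 was the highest eWAT library for 41 of the 43, and for 32 of them it stood at least 100-fold above the next eWAT library, with levels under 3 counts set to 3 counts.

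**Figure D1:**
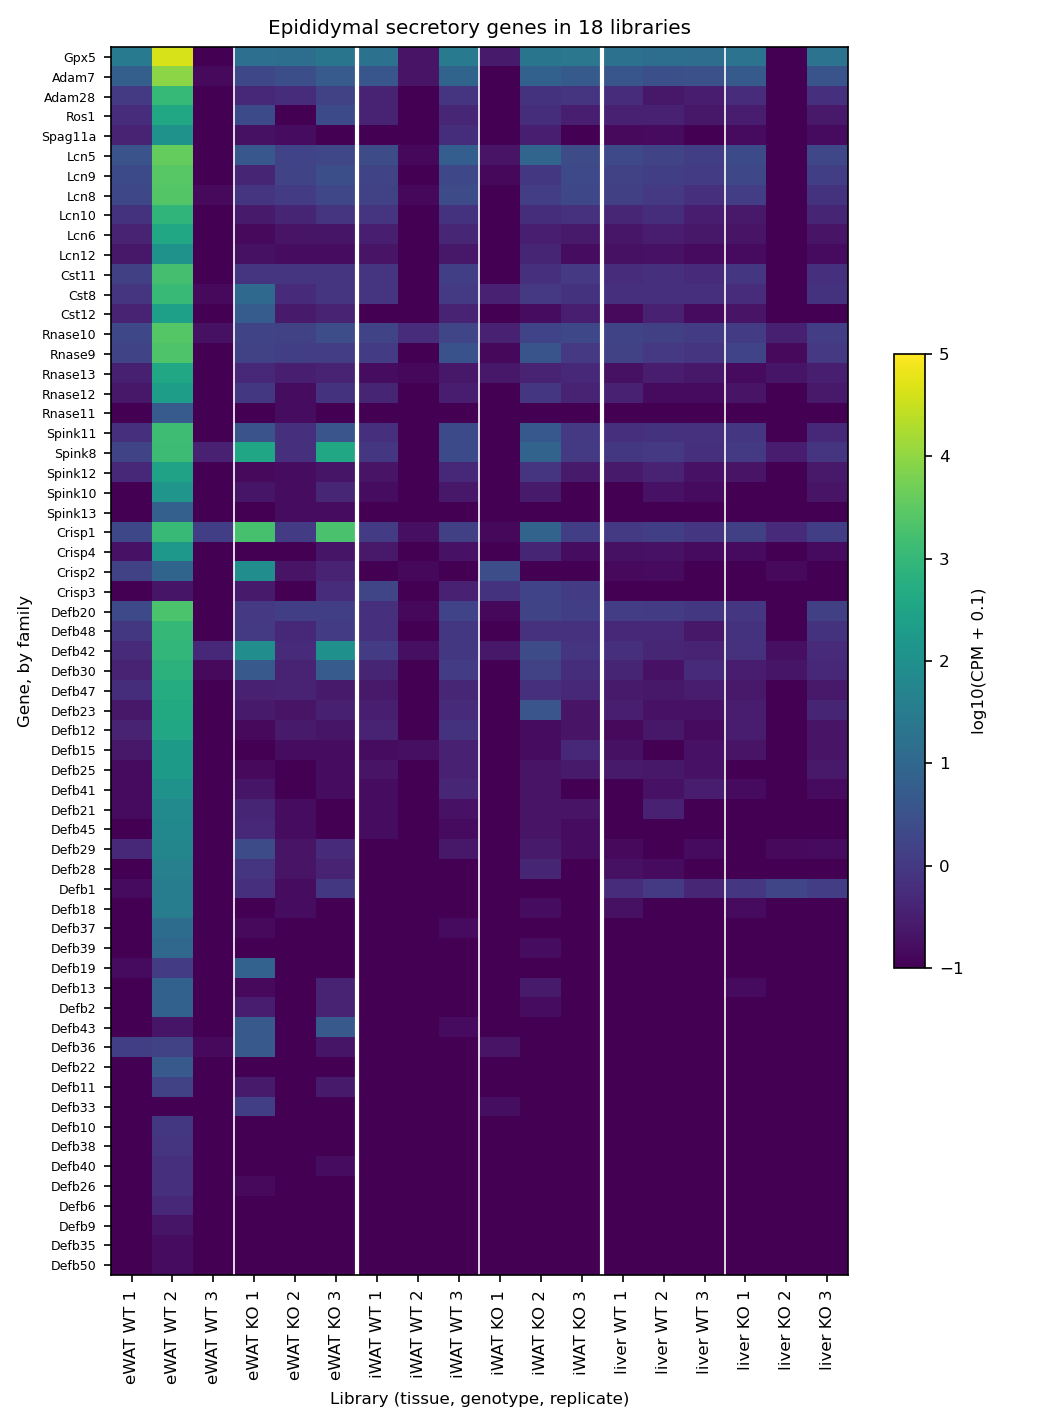
Levels of the 62 members with a read in eWAT, as log10(CPM + 0.1), with genes in rows by family and the 18 libraries in columns; thick white lines part the tissues and thin ones the genotypes. The column of eWAT WT replicate 2 is bright over most rows, from Gpx5 at 43852 CPM downward, while the columns of eWAT KO replicates 1 and 3 are bright mainly at Crisp1, Spink8 and Defb42.

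Gpx5 (ENSMUSG00000004344, chromosome 13, 21286429 to 21292731) was the most abundant gene of the whole WT replicate 2 library. It stood at 27.3, 43852 and 0 CPM in WT replicates 1, 2 and 3 and at 15.2, 14.3 and 21.7 CPM in KO replicates 1, 2 and 3. WT replicate 2 was therefore 1607-fold above the next library, and the other 2 WT libraries lay on either side of the KO libraries. Gpx5 alone was 4.39% of the counts of WT replicate 2 and 51.9% of its member counts, and by FPKM (26196) it also ranked first among all genes there. A count of 0 in WT replicate 3 allows up to 0.128 CPM, since 3 counts is taken as the limit.

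Membrane proteins included 2 of the ADAM family. Adam7, a surface protein of the caput epithelium that is passed on to sperm, stood at 6.55, 9017 and 0.0428 CPM in WT replicates 1 to 3 and at 1.85, 2.63 and 5.31 CPM in KO replicates 1 to 3. Adam28, a relative that lies beside it on chromosome 14, stood at 0.949, 1041 and 0 CPM in WT and at 0.369, 0.492 and 1.34 CPM in KO. Ros1, a receptor tyrosine kinase needed for the initial segment to form, stood at 0.475, 392 and 0 CPM in WT and at 2.13, 0 and 2.16 CPM in KO. All 3 were high in WT replicate 2 alone, and their KO values lay within the range of the WT values. Ros1 overlaps the annotated spans of other genes, so some of its reads may be mixed with theirs. Whether exons overlap was not examined.

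The 6 lipocalins lie in 1 cluster on chromosome 2, from 25490845 to 25825537, and all 6 passed 100 CPM in WT replicate 2. Lcn5, a retinoic acid binding protein of the epididymis, stood at 3.37, 3872 and 0 CPM in WT replicates 1 to 3 and at 4.15, 1.48 and 1.81 CPM in KO replicates 1 to 3. Lcn9 stood at 2.14, 2783 and 0 CPM in WT and at 0.328, 1.59 and 2.63 CPM in KO. Lcn8, which marks the initial segment and proximal caput, stood at 1.85, 2530 and 0.0428 CPM in WT and at 0.739, 0.985 and 1.81 CPM in KO. Each was high in WT replicate 2 alone, and the KO values lay within the range of the WT values. Lcn10 stood at 0.664, 846 and 0 CPM in WT and at 0.164, 0.328 and 0.700 CPM in KO, and Lcn6 at 0.285, 387 and 0 CPM in WT and 0.0411, 0.109 and 0.117 CPM in KO. Together the lipocalins made up 12.5% of member counts in WT replicate 2 but 0.230% in KO replicate 1 and 0.289% in KO replicate 3. By FPKM, Lcn5 (5579), Lcn8 (3886) and Lcn9 (3318) were the next members after Gpx5 in WT replicate 2.

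The cystatins of the reproductive tract, relatives of cysteine protease inhibitors, also sit side by side on chromosome 2, and here a KO library stood out. Cst11 stood at 1.28, 1694 and 0 CPM in WT replicates 1 to 3 and at 0.739, 0.711 and 0.758 CPM in KO replicates 1 to 3. Cst8, also called CRES, stood at 0.712, 1080 and 0.0428 CPM in WT and at 11.04, 0.438 and 0.700 CPM in KO. Cst12 stood at 0.285, 248 and 0 CPM in WT and at 5.58, 0.164 and 0.292 CPM in KO. KO replicate 1 was thus above the other 2 KO libraries for Cst8 and Cst12, while Cst11 was alike in all 3.

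The ribonuclease A relatives on chromosome 14 followed the lipocalins. Rnase10, a secreted protein of the initial segment and proximal caput, stood at 1.95, 2607 and 0.0856 CPM in WT replicates 1 to 3 and at 1.56, 1.37 and 2.57 CPM in KO replicates 1 to 3. Rnase9 stood at 1.61, 2188 and 0 CPM in WT and at 1.44, 1.20 and 1.11 CPM in KO. Rnase13 stood at 0.237, 381 and 0 CPM in WT and at 0.369, 0.219 and 0.292 CPM in KO. In these genes too WT replicate 2 was far above the other 5 libraries, which did not separate by genotype. Rnase12 stood at 0.142, 220 and 0 CPM in WT and at 0.821, 0.0547 and 0.642 CPM in KO. Rnase11 was lower, with 5.06 CPM in WT replicate 2.

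The Spink genes, which encode Kazal-type inhibitors of serine proteases, split into 2 patterns. Spink8 stood at 1.57, 1293 and 0.257 CPM in WT replicates 1 to 3 and at 332, 0.547 and 384 CPM in KO replicates 1 to 3. It was therefore high in 3 libraries, with KO replicates 1 and 3 at 25.6% and 29.7% of the level of WT replicate 2. Spink11 stood at 0.569, 1354 and 0 CPM in WT and at 3.33, 0.547 and 3.68 CPM in KO. Spink12 stood at 0.380, 290 and 0 CPM in WT and at 0.0411, 0.0547 and 0.117 CPM in KO. For Spink11 the same 2 KO libraries were the higher ones, but at only 0.246% and 0.271% of WT replicate 2. Spink12 was under the limit that 3 counts set in each KO library (0.123 to 0.175 CPM), as were Lcn6, Crisp4, Defb15 and Defb25.

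Crisp1 (ENSMUSG00000025431, chromosome 17, 40293758 to 40319207) was high in 2 KO libraries where Gpx5 was low. It stood at 1.90, 1082 and 1.20 CPM in WT replicates 1, 2 and 3 and at 1805, 1.09 and 1906 CPM in KO replicates 1, 2 and 3. The 2 high KO libraries were above WT replicate 2, at 167% and 176% of its level, and KO replicate 2 was as low as the other WT libraries. Crisp1 made up 1.28% of member counts in WT replicate 2, 75.4% of those of KO replicate 1 and 77.5% of those of KO replicate 3. By FPKM, Gpx5 was 34.3 times Crisp1 in WT replicate 2, whereas Crisp1 was 140 times Gpx5 in KO replicate 1 and 104 times in KO replicate 3.

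The other CRISP genes each went their own way. Crisp4, a CRISP of the caput, stood at 0.0949, 159 and 0 CPM in WT replicates 1 to 3 and at 0, 0 and 0.117 CPM in KO replicates 1 to 3. Crisp2, the CRISP that is made by developing sperm in the testis, stood at 1.42, 8.57 and 0 CPM in WT and at 86.9, 0.109 and 0.292 CPM in KO. Crisp2 was thus high in KO replicate 1 but not in KO replicate 3, unlike Crisp1. Crisp3, better known from salivary gland, reached at most 0.467 CPM in eWAT and 1.74 CPM in iWAT.

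Beta-defensins are small cationic peptides with antimicrobial activity, and many members of the family coat sperm in the epididymis. Of the 42, 18 reached 10 CPM in eWAT. Their share differed between gene clusters, with 4 of 5 on chromosome 14, 2 of 2 on chromosome 1, 7 of 11 on chromosome 2 and 5 of 24 on chromosome 8. Defb20 stood at 2.04, 2036 and 0 CPM in WT replicates 1 to 3 and at 0.903, 1.20 and 1.17 CPM in KO replicates 1 to 3. Defb48 stood at 0.854, 1004 and 0 CPM in WT and at 0.944, 0.383 and 1.05 CPM in KO, and Defb47 at 0.522, 514 and 0 CPM in WT and 0.246, 0.274 and 0.175 CPM in KO. Defb23 stood at 0.142, 435 and 0 CPM in WT and at 0.164, 0.109 and 0.233 CPM in KO. These 4 were high in WT replicate 2 alone. Defb12 stood at 0.285, 398 and 0 CPM in WT and at 0.0411, 0.164 and 0.117 CPM in KO. Defb15 stood at 0.142, 184 and 0 CPM in WT and at 0, 0.0547 and 0.0583 CPM in KO. Defb25 stood at 0.0475, 182 and 0 CPM in WT and at 0.0411, 0 and 0.0583 CPM in KO, so these 3 as well were high in the same single library.

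Neighbouring defensins on chromosome 14, between 62977524 and 63058149, differed from one another. Defb48 and Defb47, at one end of the cluster, had the pattern of the lipocalins. Defb42 stood at 0.427, 925 and 0.385 CPM in WT replicates 1 to 3 and at 88.7, 0.438 and 103 CPM in KO replicates 1 to 3. Defb30 stood at 0.285, 700 and 0.0428 CPM in WT and at 4.72, 0.274 and 5.19 CPM in KO. Defb43 stood at 0, 0.119 and 0 CPM in WT and at 4.72, 0 and 4.73 CPM in KO. KO replicates 1 and 3 thus held 9.59% and 11.2% of the WT replicate 2 level of Defb42, 0.675% and 0.742% of that of Defb30, and more Defb43 than WT replicate 2. Defb42 and Defb30 overlap in part of their annotated spans. Reads from the shared part may be mixed, and whether their exons overlap was not examined.

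A further 12 members reached 10 CPM, all of them in WT replicate 2 at 10.2 to 132.9 CPM, and were at most 2.42 CPM in the other 5 eWAT libraries. They were Spink10, Spag11a, Lcn12, Defb41, Defb21, Defb45, Defb29, Defb28, Defb1, Defb18, Defb37 and Defb39. Among the members under 10 CPM, Defb19, Defb36 and Defb33 were highest in KO replicate 1, at 7.55, 4.60 and 1.19 CPM. With Crisp2, Cst8 and Cst12 they were the 6 members that had at least 1 CPM in KO replicate 1 and at least 10 times the level of KO replicate 3. Spink13, Rnase11, Defb13, Defb2, Defb22 and Defb11 peaked in WT replicate 2 at 1.40 to 7.26 CPM. The 9 members under 1 CPM were Crisp3, Defb6, Defb9, Defb10, Defb26, Defb35, Defb38, Defb40 and Defb50. In all, 9 members overlap another annotated gene, among them Spink10, Spink13, Spag11a, Defb15 and Defb41.

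**Figure D2:**
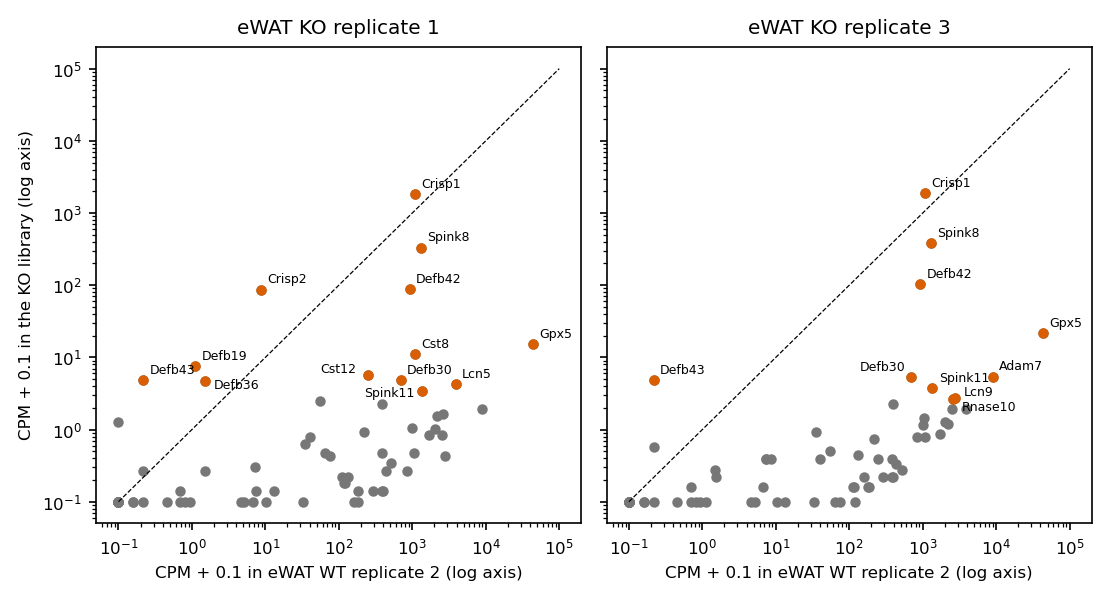
Level of each member in eWAT KO replicate 1 (left) and KO replicate 3 (right) against eWAT WT replicate 2, each point a gene, as CPM + 0.1 on log axes; orange points reached 2.5 CPM in the KO library where they are named, and the dashed line marks equal levels. Of the points named, Crisp1 and Defb43 lie above the line in both panels, and Crisp2, Defb19 and Defb36 above it in KO replicate 1 alone. Spink8 and Defb42 lie below it at 25.6 to 29.7% and 9.59 to 11.2% of the WT replicate 2 level, and most members further below.

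The mixture of KO replicate 1 resembled that of KO replicate 3. Crisp1, Spink8 and Defb42 made up 93.0% of member counts in the former and 97.4% in the latter, but 3.90% in WT replicate 2. The members other than these 3 summed to 167 CPM in KO replicate 1 and 64.3 CPM in KO replicate 3. Of all members, 5 (Crisp1, Spink8, Defb42, Defb43 and Defb30) had at least 1 CPM in both libraries and at least 10 times the highest level of WT replicates 1 and 3 and KO replicate 2.

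Markers of the duct regions were read from lists of genes known for each region. The vas deferens list held Akr1b7 alone, and the corpus and cauda list held Crisp1 alone. Ovch2, an initial segment gene, stood at 0.807, 1307 and 0 CPM in WT replicates 1 to 3 and at 0.328, 0.602 and 0.700 CPM in KO replicates 1 to 3. Etv5, an ETS factor of the initial segment, stood at 16.5, 392 and 8.73 CPM in WT and at 29.1, 31.0 and 24.7 CPM in KO. Ces5a, a carboxylesterase of the epididymis, stood at 0.569, 1210 and 0.0428 CPM in WT and at 3.53, 0.547 and 5.72 CPM in KO. WT replicate 2 was the high library for Ovch2, Etv5 and Ces5a. The caput list summed to 60484 CPM there and to 367 and 420 CPM in KO replicates 1 and 3. Most of the sum in these KO libraries was Spink8, at 332 and 384 CPM. Akr1b7, an aldose reductase of the vas deferens, stood at 2.42, 6.61 and 3.21 CPM in WT and at 7856, 3.28 and 6953 CPM in KO, so that KO replicates 1 and 3 were high and WT replicate 2 was not. Seminal vesicle genes (Svs2, Svs3a, Svs4, Svs5 and Svs6) summed to between 0 and 7.16 CPM in the 6 libraries, and all 5 were at 0 in WT replicate 2.

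Of 10 other genes known from the epididymis, the 4 with the highest eWAT level were Clu, Adgrg2, Npc2 and Spint4, all highest in WT replicate 2. Others of the list went otherwise: Sult1e1 was lowest there (2.38 CPM), Pate4 was at 0.476 CPM, and Cd52 was higher in KO replicates 1 and 3 (332 CPM each) than in WT replicate 2 (131 CPM). Clu, which encodes clusterin, a chaperone secreted by the caput and also made by many other tissues, reached 16102 CPM in WT replicate 2 against 50.7 to 473 CPM in the other 5. Adgrg2, a receptor of the efferent ducts and epididymis, reached 2307 CPM there and Npc2, a secreted sterol carrier, 1971 CPM. Foxi1, the factor that defines the proton-secreting clear cells, was at 107 CPM in WT replicate 2 and at most 0.117 CPM in the others. The 6 epithelial genes listed (Krt5, Krt8, Krt18, Epcam, Cdh1 and Pax2) summed to 125, 1409 and 2.95 CPM in WT replicates 1 to 3 and to 524, 6.73 and 348 CPM in KO replicates 1 to 3. The epithelial sum was thus high in the 3 libraries that held members in quantity, and next in WT replicate 1.

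**Figure D3:**
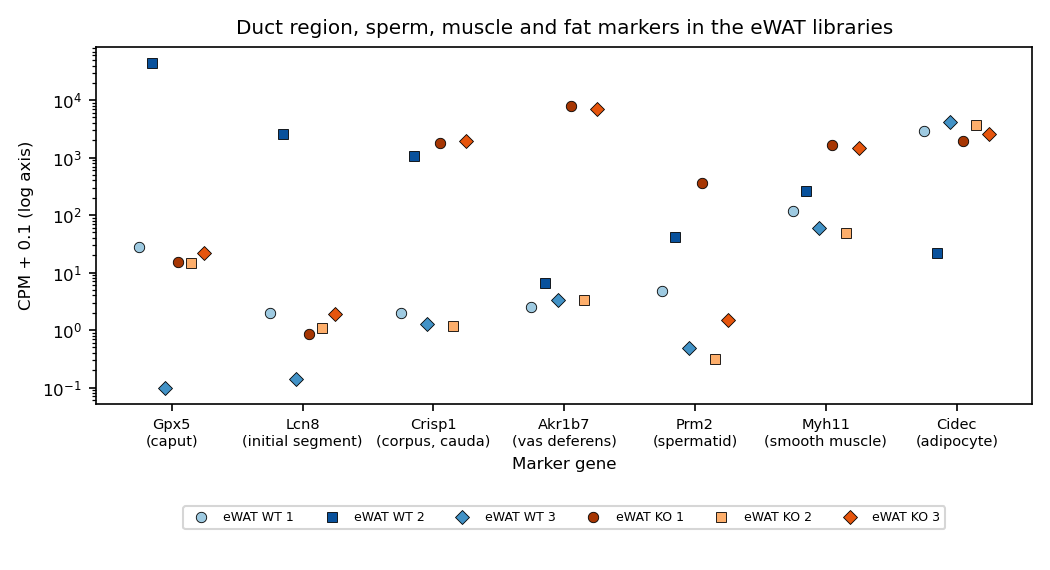
Level of 1 marker gene each for duct regions, spermatids, smooth muscle and adipocytes in the 6 eWAT libraries, as CPM + 0.1 on a log axis; each point is a library, blue for WT and orange to brown for KO. Gpx5 and Lcn8 are high in WT replicate 2, Akr1b7 and Myh11 in KO replicates 1 and 3, Crisp1 in all 3, and Cidec is low in WT replicate 2.

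Cell types other than epithelium moved with these libraries, and their part in the results was not tested. The 7 smooth muscle genes listed, among them Myh11 and Acta2, summed to 423, 1834 and 256 CPM in WT replicates 1 to 3 and to 4618, 211 and 4079 CPM in KO replicates 1 to 3. Actg2 was highest in WT replicate 2, at 963 CPM against 328 and 306 CPM in KO replicates 1 and 3. The others listed were each highest in KO replicate 1. The 7 genes of spermatids and sperm, led by Prm2 and Tnp2, summed to 14.5, 162 and 1.498 CPM in WT and to 1189, 0.328 and 9.86 CPM in KO. KO replicate 1, the high library for Crisp2, was therefore also the high library for spermatid genes, while KO replicate 3 was not. The 8 adipocyte genes, among them Cfd, Fabp4 and Cidec, summed to 27909, 281 and 37267 CPM in WT and to 15307, 23991 and 19361 CPM in KO. Cidec, a protein of the lipid droplet, was 21.9 CPM in WT replicate 2 and 1968 to 4107 CPM in the others. No listed smooth muscle, spermatid, adipocyte or epithelial gene was at 0 in WT replicate 2.

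The genotype comparison in eWAT asked whether members differed between KO and WT. No member passed an adjusted p of 0.05 in edgeR's quasi-likelihood test, in which 23 of the 70 members had reads in enough libraries to be tested. The background was 0%, with 0 of 14657 genes called. At an unadjusted p under 0.05 there were 9 members, all lower in KO, beside 843 of the 14657 genes, and DESeq2 called 0, giving no adjusted p for 21 of the 23. The members tested had a median log2 fold change of -8.90, against -0.02 for all genes tested. The 3 with the lowest p were Lcn10, at -9.62 ± 3.74 (SE), Cst11, at -9.74 ± 3.801, and Lcn8, at -9.63 ± 3.77, each with an edgeR adjusted p of 0.706. Gpx5 had a mean of 17.1 ± 4.02 CPM in KO and 14627 ± 25310 CPM in WT (SD, n = 3), with a log2 fold change of -9.90 ± 4.35 and an edgeR adjusted p of 0.706. Crisp1 was at 1238 ± 1072 CPM in KO and 362 ± 624 CPM in WT, with a log2 fold change of 1.54 ± 2.78 and an edgeR adjusted p of 0.877.

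These differences rested on single libraries. Without WT replicate 2 the median log2 fold change of the members tested was 0.82, and the values were 0.10 for Gpx5, 0.02 for Lcn10, 0.08 for Lcn8, -0.03 for Cst11 and 9.21 for Crisp1. No member passed in that fit either. With WT replicate 2 and KO replicates 1 and 3 left out together, a choice made after seeing the data, 0 of 19 members tested passed, beside 25 of 14723 genes, and Crisp1 had a log2 fold change of -0.76. That fit has a single KO library, whose spread is taken from the 2 WT libraries. The SD of Gpx5 and of Crisp1 in WT exceeded their means.

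In iWAT and liver the members were low in both genotypes. In iWAT 0 of 18 members tested passed in edgeR (background 0%, 0 of 14226 genes), and none had an unadjusted p under 0.05. DESeq2 called 0 members, with no adjusted p for 5 of the 18, and 67 genes in all. Crisp1, Spink8 and Defb42 had the lowest p there, with log2 fold changes of 1.80, 1.47 and 0.61 and an edgeR adjusted p of 1.0 each. Gpx5 stood at 18.4, 0.109 and 31.3 CPM in iWAT WT replicates 1 to 3 and at 0.178, 21.9 and 23.7 CPM in iWAT KO replicates 1 to 3, so that each genotype had low and higher libraries. In liver 0 of 14 members tested passed (background 0.0504%, 6 of 11915 genes), and none had an unadjusted p under 0.05. DESeq2 called 0 members, with no adjusted p for 3 of the 14, and 65 genes in all. Defb1, Rnase10 and Spink11 had the lowest p in liver, with log2 fold changes of 0.90, -0.80 and -0.83 and edgeR adjusted p of 0.836, 0.837 and 0.894. Defb1, a defensin of many epithelia including that of kidney, had its own distribution, at 0.338 to 0.938 CPM in liver WT, 0.774 to 1.66 CPM in liver KO and 0 in all 6 iWAT libraries. The genotype effect did not pass as different between eWAT and iWAT for any of 25 members tested (lowest edgeR adjusted p 0.969), nor between eWAT and liver for any of 23 (0.866). No gene passed in either comparison, of 15455 and 14984 tested, so this is not particular to the members.

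Between the fat depots, with genotype as a term, 4 of 25 members tested passed, all higher in eWAT. The background was 17.9% of 15455 genes in either direction and 8.88% higher in eWAT. Crisp1 was at 800 ± 919 CPM in eWAT and 1.91 ± 2.96 CPM in iWAT (SD, n = 6), a log2 difference of 8.78 ± 2.22 (SE) with an edgeR adjusted p of 0.0242. Its iWAT libraries stood at 0.977, 0.0728 and 1.29 CPM in WT replicates 1 to 3 and at 0.0357, 7.85 and 1.22 CPM in KO replicates 1 to 3, so KO replicate 2 was the high one. Defb36 differed by 5.56 ± 1.51 (edgeR adjusted p = 0.0304) at levels of 1.23 ± 1.76 against 0.0178 ± 0.0437 CPM, and 5 of its 6 iWAT libraries had no read. It entered the test only through its eWAT reads, so its difference had to be in that direction and is given as a description. In eWAT it stood at 1.19, 1.43 and 0.0428 CPM in WT and at 4.60, 0 and 0.117 CPM in KO. Defb42 differed by 7.42 ± 2.11 (edgeR adjusted p = 0.0353), with 186 ± 365 CPM in eWAT and 0.0728 to 2.30 CPM in the iWAT libraries. Spink8 differed by 7.51 ± 2.34 (edgeR adjusted p = 0.0472), with 335 ± 501 CPM in eWAT and 0 to 8.23 CPM in the iWAT libraries. The libraries of the depots overlapped for all 4, since the low eWAT libraries were no higher than the highest iWAT library. Gpx5 did not pass, with a log2 difference of 5.01 ± 4.47 and an edgeR adjusted p of 0.467. The members tested had a median log2 difference of 5.56 against 0.09 for all genes, and without eWAT WT replicate 2 the medians were 0.40 and 0.08. Like Defb36, some other members entered the test through eWAT, among them Crisp2 and Defb1, which was at 0 in iWAT. The filter thus partly set the member medians, which are given as a description. Without that library the log2 difference was 0.02 for Gpx5, 6.48 for Crisp1 (edgeR adjusted p = 0.11) and 3.88 for Defb42.

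The number of members called between depots moved with single libraries. The share of all genes called moved as well and is given in brackets. The members called were 1 (Defb36) without eWAT WT replicate 2 (17.3%), 1 (Crisp1) without eWAT KO replicate 1 (9.21%), 2 without eWAT KO replicate 3 (9.93%), 8 without eWAT WT replicate 3 (20.5%) and 8 without eWAT KO replicate 2 (20.7%). There were 0 without iWAT WT replicate 1 (8.02%), WT replicate 3 (8.87%) or KO replicate 3 (6.17%), 1 without iWAT KO replicate 2 (7.35%), and 2 without iWAT WT replicate 2 (18.3%) or KO replicate 1 (18.2%). With the 3 eWAT libraries that held members in quantity left out together, 0 of 27 members tested passed (38 of 15882 genes) and the median log2 difference was -0.11. Defb36 overlaps the annotated span of another gene, and some of its reads may be mixed with those of that gene.

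Low levels of the members were also found in tissues away from the duct. The 34 members with at least 100 CPM in eWAT WT replicate 2 were followed as a fraction of their level in that library. In 10 libraries (eWAT WT replicate 1 and KO replicate 2, iWAT WT replicates 1 and 3 and KO replicate 3, and all liver libraries but KO replicate 2) their summed level was 3.33 to 8.67 per 10000 of that in WT replicate 2. In those 10 libraries Gpx5 stood at 14.2 to 31.3 CPM. The 10 were grouped after the levels were seen, so the correlations given next partly follow from that choice. Across the 34 genes, log2(CPM + 0.1) in each of the 10 correlated with that in WT replicate 2 with a Pearson r of 0.93 to 0.97 and a Spearman rho of 0.89 to 0.96. This describes genes within libraries, which are not independent replicates and share the same reference library. In these libraries, liver included, the members thus stood in much the same, though not equal, proportions to one another as in WT replicate 2. Crisp1 was above Gpx5 on this measure in each of them, at 7.13 to 17.5 per 10000 against 3.23 to 7.14 for Gpx5. Where these reads came from was not tested. Reads of the eWAT libraries that held members in quantity, assigned to other libraries, and RNA of the tissues themselves cannot be told apart here. The low levels of members in liver, iWAT and the other eWAT libraries are therefore not read as expression there.

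Another 4 libraries held almost none of these genes. In eWAT WT replicate 3, iWAT WT replicate 2, iWAT KO replicate 1 and liver KO replicate 2 the summed level was 0.125 to 0.249 per 10000, and Gpx5 had 0, 3, 5 and 0 counts. Crisp1 had 28 counts in eWAT WT replicate 3 and 12 in liver KO replicate 2, so the few reads there were not in the proportions of WT replicate 2. Those 2 libraries also had Spink8, with 6 and 5 counts. Crisp2 had 72 counts (2.57 CPM) in iWAT KO replicate 1, where the 7 spermatid genes summed to 40.7 CPM against at most 0.557 CPM in the other iWAT libraries.

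In iWAT KO replicate 2 the mixture was different again. The summed level was 9.79 per 10000, with a Pearson r of 0.785 to WT replicate 2. This library was left out of the 10 after the levels were seen. Of the 34 members, 15 were above the highest of the 10 libraries, some of them barely. Ros1 stood at 12.6 per 10000 against at most 12.1, and Defb47 at 10.7 against at most 10.2. Defb23 stood at 87.0 per 10000 of its WT replicate 2 level, against at most 10.3 in the 10 libraries. Crisp1 stood at 72.5 against at most 17.5, and Spink8 at 63.6 against at most 16.5. Gpx5, at 5.004 per 10000, was within the range of the 10 libraries, so the excess was in some members and not in others.

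**Figure D4:**
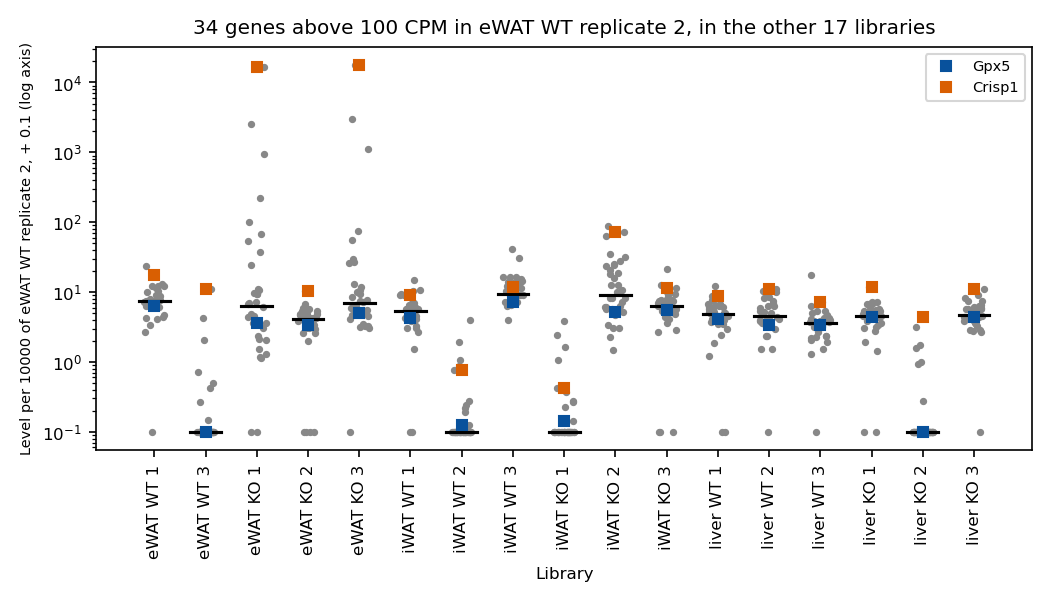
Level of each of the 34 members with at least 100 CPM in eWAT WT replicate 2, per 10000 of its level there plus 0.1 on a log axis, in the other 17 libraries; grey points are genes, black bars their medians, and Gpx5 and Crisp1 are marked. Most libraries have a tight cloud near 3 to 10, 4 have medians at 0, and Crisp1 rises far above the cloud in eWAT KO replicates 1 and 3.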

How the data were processed

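Messenger RNA was profiled in 18 libraries, 3 in each of 6 groups. Per the submitters' processing notes, the tools include HISAT2, RSEM, StringTie 1.3.1, fastp 0.18.0 and Bowtie2 2.2.8, beside edgeR and DESeq2, and the build is mm10; the step of each tool is not stated there. The authors deposited expected counts and FPKM values per gene and library. Expected counts can be fractional, and 8.33% of the deposited values lay at least 0.01 from a whole number. Library totals were 16796147 to 28039742 counts.

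Levels are CPM of the unscaled total. For tests, expected counts were rounded, genes were kept by filterByExpr (minimum count 10, minimum total 15), scaled by TMM and tested over all genes with edgeR 4.0.16 (glmQLFit, robust, and glmQLFTest) in R 4.3.3. P-values were adjusted by Benjamini and Hochberg over all genes tested and called under 0.05. An SE is the size of the log2 fold change over the root of F. The script was tested on simulated data. Alternatives were median-of-ratios scaling, no filter, DESeq2 1.42.0, limma 3.58.1 on log2(FPKM + 1) and log2(FPKM + 0.1), a replicate block and leaving out libraries.

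Of the identifiers, 22255 matched GENCODE M21 on GRCm38, the same build. The members and marker lists were chosen with earlier results of these data known. Gpx5 and Crisp1 are always named. The 30 members with the highest eWAT level of at least 10 CPM have every eWAT value given, and the 3 members with the lowest p are named in each comparison. Members lower in that order (Crisp2, Defb43, Defb19, Defb36 and others) were named after their values were seen. At most 4 genes of a marker list, members apart, were to be named, in order of their highest eWAT level. The epithelial and seminal vesicle lists are named whole. Sult1e1, Pate4 and Cd52 are named beyond the 4 of their list. Promoters are from RefSeq.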

Additional observations from a re-analysis of the deposited data

How the results depend on the processing

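Under every alternative run, 0 members were called between KO and WT in eWAT, iWAT and liver. Between depots the 4 calls, of 25 members tested, moved with the setting (share of all genes called in brackets). They became 0 with limma on log2(FPKM + 1) (6.98%) or log2(FPKM + 0.1) (8.89%). The replicate block gave 2 (10.8%), Crisp2 and Defb36. Both entered the test through eWAT, so their direction is given as a description. DESeq2 gave 3 (28.5%), with no adjusted p for 21 of the 25. Without the filter there were 3 of 62 members tested (12.6%), and median-of-ratios scaling gave 4 (17.8%). There were 0 with 3 eWAT libraries left out together (0.239%), and 0 to 8 with 1 library left out (shares given above). Correlations of same-numbered libraries ran from -0.72 to 0.18, and at most 2 of 6 correlated best with their own number. Differences in tissue content between libraries enter these correlations. They therefore cannot tell whether same-numbered libraries of different tissues came from 1 animal, and the main tests treat libraries as unpaired.

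With sizes scaled by TMM over 18 libraries, the summed members stood at 49.15 and 59400 CPM in eWAT WT replicates 1 and 2 and at 1419, 22.75 and 1597 CPM in eWAT KO replicates 1, 2 and 3. With median-of-ratios sizes they stood at 49.84, 63560, 1430, 22.77 and 1611 CPM. The order of these libraries was the same under both.

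Signs turned for some single genes, and the cause was not tested. In eWAT KO minus WT, with 3 libraries left out together, log2 fold changes were 0.02 for Cst11 and -0.76 for Crisp1. In eWAT minus iWAT with the same left out, they were -0.60 for Defb42 and -0.06 for Gpx5. In iWAT, Spink8 was at -0.59 with the replicate block and Gpx5 at 0.05 with limma on log2(FPKM + 0.1). Leaving out 1 library gave ranges in eWAT of -10.48 to 0.10 for Gpx5, -10.30 to 0.02 for Lcn10 and -10.21 to 0.08 for Lcn8. In iWAT these were -0.41 to 2.44 for Crisp1, -1.17 to 2.84 for Spink8, -0.61 to 1.14 for Defb42 and -0.83 to 0.67 for Gpx5. In liver they were -0.87 to 0.16 for Gpx5 and -0.38 to 0.22 for Crisp1.

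Counts over all genes moved more than 1.5 times with some settings. Between depots, 2765 genes became 4398 with DESeq2, 1079 with limma on log2(FPKM + 1), 1374 on log2(FPKM + 0.1), 1663 with the block and 38 with 3 libraries left out together. In liver, 6 became 65 with DESeq2, 39 with the block and 11 without the filter. DESeq2 called 126 genes in eWAT and 67 in iWAT, against 0 in each with edgeR.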
